A study of Mus musculus with 63 samples.

Results

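The AP-1 genes code for the transcription factors of the FOS and JUN families and for ATF3, which pairs with JUN proteins. They were taken by gene symbol: Fos, Fosb, Fosl1, Fosl2, Jun, Junb, Jund and Atf3, which are 8 of the 34745 genes in the tables. All 8 were found in both tissues, and all 8 passed the filter on low counts. Bulk RNA sequencing had been done on ovary and pituitary of female C57BL/6 mice after chronic unpredictable mild stress (CUMS), in which animals meet a changing series of mild stressors over weeks, and on unstressed controls (Ctrl). The series title sets young against adult females, and its design text pairs 2 months of age with 8 weeks of stress and 6 months with 12 weeks, while the sample titles hold all 4 combinations of age and duration. These sets are written 2M-8W and 2M-12W for the younger and 6M-8W and 6M-12W for the older age, each with 4 CUMS and 4 control libraries per tissue, except 6M-12W with 3 control ovaries.

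No genotype or drug is named for any group. The sources used here give neither the batch of sequencing nor the hour at which tissue was taken, nor the estrous stage, nor whether the age is that before or after the stress. The titles number the replicates and say nothing of separate animals, so the p-values measure the spread between these samples.

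AP-1 is a dimer, typically of a FOS and a JUN protein. FOS proteins do not pair with each other, JUN proteins do, certain MAF and ATF proteins can serve as partners, and the dimer binds short DNA elements in front of many genes. Most members are immediate early genes, transcribed within minutes of a stimulus through factors that are already in the cell, and their mRNAs are short-lived. In the ovary the surge of luteinizing hormone (LH) induces several of them in granulosa cells, and in rat granulosa cells FOSL2 and JUND persist as the cells become luteal. In pituitary gonadotropes gonadotropin-releasing hormone induces FOS and JUN proteins, which act on gonadotropin genes.

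Total counts were 12536371 to 28777668 per library in the 31 ovary and 13514270 to 24924584 in the 32 pituitary libraries. Ovary libraries carried the granulosa, luteal, theca and oocyte markers, with summed luteal markers of 9172 to 20771 CPM (counts scaled to a library of equal size) in CUMS and 11729 to 20354 CPM in control ovaries. In the pituitary libraries Prl and Drd2, the lactotrope markers, summed to 100519 to 136586 CPM in CUMS and 106694 to 164837 CPM in controls. CUMS ovaries 1 and 3 of 2M-8W and control pituitaries 3 and 4 of 6M-12W stood apart from the rest on the first principal component of all genes. Counts of AP-1 genes that passed within a tissue are also given without them. The list counts, the marker counts and the differences between tissues below include them. Levels below are CPM scaled with TMM factors. "Passed the test" means a Benjamini-Hochberg adjusted p under 0.05, over all genes tested, in edgeR's quasi-likelihood test. Below, groups are called apart or overlapping, and CUMS libraries are counted below a control mean. The share of all genes with such patterns was not counted.

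The windows from 250 bases before to 50 bases after the annotated start were at hand for 7 of the 8 genes, all but Fosl1 (RefSeq, GRCm38.p6), and 3 are printed because these genes are the fast-induced members whose values are set against each other below. Fosb and Junb were lower in CUMS ovaries and Fos did not pass the test there. The capitals mark TGACG, the first letters of the cAMP response element TGACGTCA, searched on both strands. Fos lies on the plus strand at chr12:85473640-85473939, Fosb on the minus strand at chr7:19309996-19310295 and Junb on the minus strand at chr8:84978699-84978998.
Fos: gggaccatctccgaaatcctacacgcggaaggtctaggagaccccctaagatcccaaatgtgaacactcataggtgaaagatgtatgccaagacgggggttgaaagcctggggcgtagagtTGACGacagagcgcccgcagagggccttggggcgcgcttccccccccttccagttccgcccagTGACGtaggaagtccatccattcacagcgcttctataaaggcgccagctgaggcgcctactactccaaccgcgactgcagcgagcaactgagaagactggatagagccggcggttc
Fosb: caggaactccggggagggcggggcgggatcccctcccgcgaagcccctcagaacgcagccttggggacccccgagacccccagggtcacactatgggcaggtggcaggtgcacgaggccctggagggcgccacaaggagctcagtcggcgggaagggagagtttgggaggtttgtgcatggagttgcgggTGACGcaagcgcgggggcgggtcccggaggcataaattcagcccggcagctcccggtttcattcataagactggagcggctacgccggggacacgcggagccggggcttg
Junb: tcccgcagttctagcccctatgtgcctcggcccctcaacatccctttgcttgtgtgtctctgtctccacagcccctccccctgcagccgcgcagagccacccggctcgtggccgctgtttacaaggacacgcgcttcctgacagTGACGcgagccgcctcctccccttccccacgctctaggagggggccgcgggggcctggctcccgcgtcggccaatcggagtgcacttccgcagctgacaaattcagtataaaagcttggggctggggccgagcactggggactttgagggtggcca
Fos has TGACG at bases -129 and -66 from the start, Fosb at -60 and Junb at -106. Atf3 (chr1:191183284-191183583, minus strand) has it at -7 on the opposite strand, and Fosl2, Jun and Jund have none in their windows. TGACG was thus present in 4 of 7 windows, against 20.9% of all 32544 windows. The windows of Atf3 and Fosl2 lie wholly inside the gene positions given further below, so they are not at the outer start of these genes. The full element TGACGTCA, which contains TGACG, the AP-1 site TGAGTCA and the CArG box were in 0 of the 7 windows, against 1.8%, 5.19% and 1.64% of all windows. TATAAA was in 2 of the 7 windows, at -33 in Fos and at 1 in Junb, counted from the first transcribed base, against 13.6% of all windows. A match describes letters in a window and is no measured binding site. Sites outside the windows, and sites with other letters than those searched, would be missed, so 0 matches do not show that a gene lacks such a site.

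In the ovary 7 of the 8 AP-1 genes were lower after stress in the mean of the 4 sets, each set against its own controls, and none was higher. Of all tested genes 11.5% were lower and 8.86% higher in this comparison. Fosl1 passed the filter on low counts through its control libraries; of the other 7 members 6 were lower, with a median log2 fold of -0.57, against 0.01 over all 17766 genes tested. Fosl1 and Fosb changed most, Junb and Fosl2 less, and Jund and Jun by a small amount. Fos was the member that did not pass. Without CUMS ovaries 1 and 3 of 2M-8W, 6 members were lower, Jun being the one lost. In bulk samples, fewer cells of a type and less RNA per cell cannot be told apart.

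**Figure D1:**
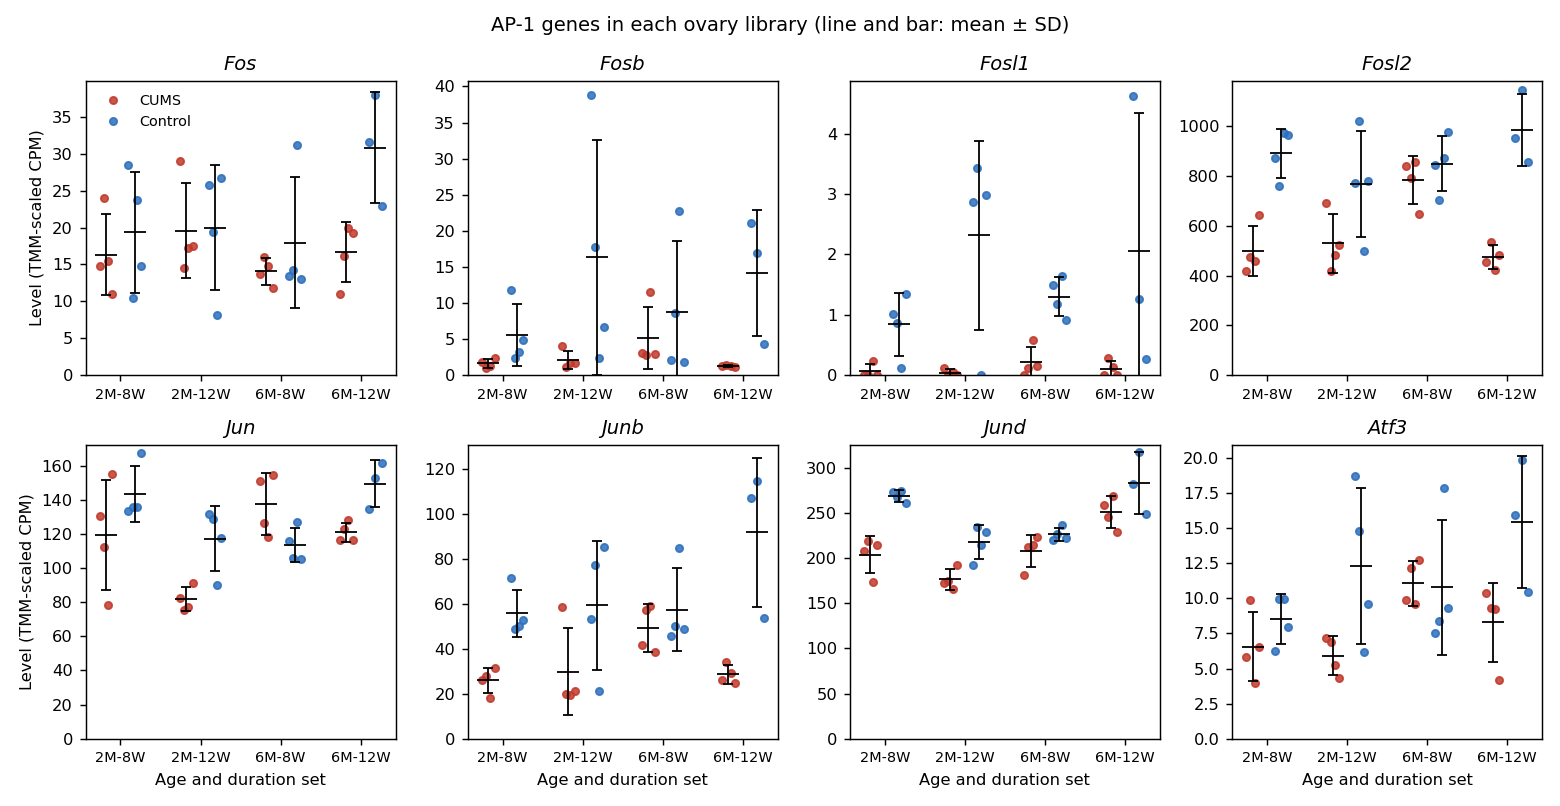
Level of each AP-1 gene (TMM-scaled CPM, axis from 0, own scale per panel) in each of the 31 ovary libraries, by set, with CUMS in red and control in blue; points are libraries and black bars the mean ± SD. Fosl1 is close to 0 in the CUMS ovaries, Fosl2 groups do not overlap in 2M-8W and 6M-12W, and Fos groups overlap in every set but 6M-12W.

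The members differ widely in abundance. Per length, as the median FPKM over the 15 control ovaries, Jund stood at 82.0 and Fosl2 at 74.4, ahead of Jun at 40.9 and Junb at 29.4. Fos had 6.08 FPKM, Atf3 3.79, Fosb 1.78 and Fosl1 0.712. The largest falls were thus in the 2 least abundant members. In the pituitary controls the order was another: Junb had 118 FPKM, Jund 71.4, Fos 69.9, Fosl2 20.2, Jun 12.3, Fosb 11.3, Atf3 1.42 and Fosl1 0.230.

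Fosl1 codes for FRA1, a FOS protein without the strong activation domain of FOS itself, and it was nearly absent from CUMS ovaries. CUMS ovaries of 2M-8W had 0, 0, 0.2402 and 0 CPM, against 1.02, 0.868, 0.121 and 1.35 CPM in control ovaries. Fosl1 stood at 0.117, 0, 0.0507 and 0 CPM in CUMS ovaries of 2M-12W, against 2.88, 3.43, 0 and 2.98 CPM in control ovaries. In both sets the CUMS ovaries lay near 0, and control ovary 3 lay down among them. In 6M-8W it was at 0, 0.117, 0.581 and 0.149 CPM in CUMS ovaries, against 1.49, 1.18, 1.64 and 0.905 CPM in control ovaries. CUMS ovaries of 6M-12W had 0, 0.2803, 0.135 and 0 CPM, against 4.63, 1.27 and 0.264 CPM in control ovaries. Groups were apart in 6M-8W, while in 6M-12W control ovary 3 overlapped with CUMS ovary 2.

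These are few reads. Summed over libraries, Fosl1 had 3 counts in CUMS and 71 in control ovaries of 2M-8W, 3 in CUMS and 197 in control ovaries of 2M-12W, 17 in CUMS and 95 in control ovaries of 6M-8W, and 9 in CUMS and 140 in control ovaries of 6M-12W. Per library size, the controls were 20.6 times as high as CUMS in 2M-8W (95% interval 6.76 to 102, counting error only), 65.4 times in 2M-12W (22.1 to 320), 6.1 times in 6M-8W (3.61 to 10.9) and 17.8 times in 6M-12W (9.09 to 39.7). Since Fosl1 passed the filter on low counts through control libraries, its mean fold is given with that from a fit with no such filter. The mean log2 fold was -4.14 ± 0.59 (SE, adjusted p = 2.88e-05) and, with no filter, -4.14 ± 0.58 (SE, adjusted p = 2.31e-05), with 16 of 16 CUMS ovaries below their set's control mean. In the fit with the filter it passed the test in 2M-12W, with -5.72 ± 1.26 (SE, adjusted p = 0.00751), and in 6M-12W, with -4.20 ± 1.11 (SE, adjusted p = 0.0157). The 6M-12W call was lost without control ovary 1, where the log2 fold became -2.80 (adjusted p = 0.161), and without CUMS ovary 4. The annotation places Ccdc85b on the opposite strand over 2766 bases of Fosl1, and no source used here says whether counting used the strand.

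Fosb, whose short splice form is the long-lived delta FosB, fell 4.79-fold in the mean, with a log2 fold of -2.26 ± 0.40 (SE, adjusted p = 0.000281) and 15 of 16 CUMS ovaries below their control mean. Fosb stood at 1.86, 0.959, 1.28 and 2.37 CPM in CUMS ovaries of 2M-8W, against 11.8, 2.31, 3.15 and 4.802 CPM in control ovaries. In 2M-12W it was at 3.98, 1.12, 1.62 and 1.68 CPM in CUMS ovaries, against 38.8, 17.7, 2.33 and 6.59 CPM in control ovaries. The controls spread far more than the CUMS ovaries, control ovary 2 of 2M-8W lay among the stressed ones, and control ovary 3 of 2M-12W was again low. CUMS ovaries of 6M-8W had 3.09, 2.81, 11.5 and 2.89 CPM, against 2.03, 8.57, 22.8 and 1.86 CPM in control ovaries. Fosb stood at 1.19, 1.35, 1.303 and 1.08 CPM in CUMS ovaries of 6M-12W, against 21.1, 16.97 and 4.34 CPM in control ovaries. The groups overlapped in 6M-8W and were apart in 6M-12W, where every CUMS ovary was close to 1 CPM. The test was passed in 2M-12W, with -2.98 ± 0.80 (SE, adjusted p = 0.0236), and in 6M-12W, with -3.51 ± 0.86 (SE, adjusted p = 0.0102). The 2M-12W call was lost in 5 of 31 fits that left out 1 library, namely CUMS ovaries 2, 3 and 4 and control ovaries 1 and 2 of that set (highest adjusted p = 0.0898).

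Fosl2, which codes for FRA2, had the smallest adjusted p of the family. In 2M-8W it was at 419, 475, 458 and 643 CPM in CUMS ovaries, against 873, 761, 973 and 963 CPM in control ovaries. CUMS ovaries of 6M-12W had 453, 535, 423 and 484 CPM, against 953, 1145 and 858 CPM in control ovaries. All CUMS ovaries lay below all controls in both of these sets. Fosl2 stood at 693, 417, 485 and 523 CPM in CUMS ovaries of 2M-12W, against 773, 1022, 499.9 and 779.96 CPM in control ovaries. In 6M-8W it was at 839, 793, 856 and 646 CPM in CUMS ovaries, against 845, 705, 873 and 975.5 CPM in control ovaries. In 2M-12W CUMS ovary 1 was high and control ovary 3 low for their groups, and in 6M-8W the groups covered the same range. The mean log2 fold was -0.64 ± 0.09 (SE, adjusted p = 1.97e-05), with 15 of 16 CUMS ovaries below their control mean. By set it passed in 2M-8W, with -0.84 ± 0.17 (SE, adjusted p = 0.0152), and in 6M-12W, with -1.06 ± 0.18 (SE, adjusted p = 0.00175). The 2M-8W call was lost without control ovary 4 (adjusted p = 0.0618) and without CUMS ovary 1 of that set.

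Fos, the founding member and a common marker of recent cell activation, did not pass in any set or in the mean of sets, -0.38 ± 0.17 (SE, adjusted p = 0.122), with a 95% interval of -0.72 to -0.04 before adjustment and 14 of 16 CUMS ovaries below their control mean. CUMS ovaries of 2M-12W had 29.1, 14.5, 17.2 and 17.5 CPM, against 25.7, 19.4, 8.17 and 26.7 CPM in control ovaries. Fos stood at 11.04, 16.2, 20.002 and 19.3 CPM in CUMS ovaries of 6M-12W, against 31.6, 37.9 and 22.9 CPM in control ovaries. The groups overlapped in 2M-12W, and in 6M-12W each CUMS ovary was below each control, with a log2 fold of -0.89 ± 0.36 (SE, adjusted p = 0.109). It passed there when only those 2 groups were fitted (adjusted p = 0.0313). In 2M-8W Fos spanned 11.02 to 24.03 CPM in CUMS and 10.5 to 28.5 CPM in control ovaries, and in 6M-8W 11.8 to 16.1 CPM in CUMS and 12.96 to 31.2 CPM in control ovaries. Over the 8 ovary groups the highest mean of Fos was in the 6M-12W controls, 30.8 ± 7.54 CPM (SD, n = 3), and the gap to the next group exceeded the larger SD of the pair. The other 7 groups, with means of 14.1 to 19.98 CPM, followed each other within their SD.

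Junb codes for a JUN protein that activates many targets less strongly than JUN, and it fell 2.00-fold in the mean, with a log2 fold of -1.003 ± 0.18 (SE, adjusted p = 0.000285) and 15 of 16 CUMS ovaries below their control mean. In 2M-8W it was at 26.04, 28.1, 18.01 and 31.6 CPM in CUMS ovaries, against 71.6, 48.9, 50.4 and 52.7 CPM in control ovaries. CUMS ovaries of 6M-12W had 25.98, 34.4, 29.3 and 24.8 CPM, against 107, 115 and 53.8 CPM in control ovaries. The groups did not overlap in either set, and the test was passed in 6M-12W, with -1.68 ± 0.37 (SE, adjusted p = 0.00577), while 2M-8W gave -1.10 ± 0.35 (SE, adjusted p = 0.0586). Junb stood at 58.8, 19.9, 19.7 and 21.1 CPM in CUMS ovaries of 2M-12W, against 53.5, 77.6, 21.3 and 85.3 CPM in control ovaries. In 6M-8W it was at 41.7, 57.4, 59.2 and 38.7 CPM in CUMS ovaries, against 45.9, 50.2, 84.9 and 48.9 CPM in control ovaries. In 2M-12W 1 library on each side, CUMS ovary 1 and control ovary 3, had the level of the other group. The 2M-12W fold of -0.999 ± 0.35 (SE, adjusted p = 0.0825) passed without CUMS ovary 1 (adjusted p = 0.00543) and without control ovary 3.

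Jund, the JUN gene that most cells express without a stimulus, fell by a small amount in a narrow spread, and all 16 CUMS ovaries were below their control mean. CUMS ovaries of 2M-8W had 208, 219, 174 and 215 CPM, against 274, 268, 274 and 261 CPM in control ovaries. Jund stood at 173, 175, 166 and 193 CPM in CUMS ovaries of 2M-12W, against 193, 235, 214 and 229 CPM in control ovaries. The groups were apart in 2M-8W and met in 2M-12W, where CUMS ovary 4 reached the level of control ovary 1. The log2 fold was -0.25 ± 0.04 (SE, adjusted p = 0.000143) in the mean, -0.40 ± 0.08 (SE, adjusted p = 0.0152) in 2M-8W and -0.30 ± 0.08 (SE, adjusted p = 0.0241) in 2M-12W. The 2M-12W call was lost in 5 of 31 fits that left out 1 library, namely CUMS ovaries 1, 2 and 3 and control ovaries 2 and 4 of that set (highest adjusted p = 0.143). In 6M-8W and 6M-12W the folds of -0.12 and -0.18 did not pass. The annotation puts the antisense gene Gm11175 over 919 bases of Jund, Junos over 689 bases of Jun and Gm24748 over 108 bases of Atf3, so reads of these pairs may not be separable.

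Jun, the substrate of the JUN kinases, passed narrowly in the mean, -0.20 ± 0.07 (SE, adjusted p = 0.0465), with 11 of 16 CUMS ovaries below their control mean. In 2M-12W it was at 82.6, 75.6, 77.4 and 91.1 CPM in CUMS ovaries, against 132, 129, 90.1 and 118 CPM in control ovaries, with a log2 fold of -0.52 ± 0.14 (SE, adjusted p = 0.026). CUMS ovaries of 6M-8W had 151, 126, 118 and 154 CPM, against 116, 106, 127 and 105 CPM in control ovaries. In 6M-8W the fold had the other sign without passing the test, 0.28 ± 0.14 (adjusted p = 0.35), and 2 of 4 CUMS ovaries were above all controls. Of the 31 fits that each left out 1 ovary library, 12 kept Jun past the threshold in the mean, and its adjusted p went up to 0.0933 without control ovary 2 of 6M-12W. The mean call was also lost without CUMS ovaries 1 and 3 of 2M-8W, with library totals as the only scaling and with no filter on low counts. The 2M-12W call was lost without CUMS ovary 2 or 3, or control ovary 1, 2 or 4, of that set (highest adjusted p = 0.119).

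Atf3, a stress-inducible member of the ATF/CREB family that pairs with JUN proteins, fell in the mean, -0.57 ± 0.17 (SE, adjusted p = 0.0155), with 13 of 16 CUMS ovaries below their control mean. Atf3 stood at 7.21, 6.91, 5.28 and 4.33 CPM in CUMS ovaries of 2M-12W, against 18.8, 14.8, 6.16 and 9.62 CPM in control ovaries. In 6M-12W it was at 10.4, 9.34, 9.26 and 4.17 CPM in CUMS ovaries, against 15.98, 19.9 and 10.5 CPM in control ovaries. Control ovary 3 of 2M-12W sat among the CUMS values, and in 6M-12W the groups came close without overlapping. Neither set passed by itself, with -1.06 ± 0.33 (SE, adjusted p = 0.0506) in 2M-12W and -0.90 ± 0.35 (SE, adjusted p = 0.0866) in 6M-12W. In the other 2 sets it covered 4.003 to 12.7 CPM in CUMS ovaries and 6.22 to 17.9 CPM in controls, with overlap in both.

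By set, 2 of 8 members were lower in 2M-8W (Fosl2 and Jund), where 2.31% of all genes were lower and 3.96% higher. In 2M-12W 4 were lower (Fosb, Fosl1, Jun and Jund), against 4.15% of genes lower and 2.58% higher. In 6M-12W 4 were lower (Fosb, Fosl1, Fosl2 and Junb), against 6.26% lower and 5.18% higher. In 6M-8W edgeR called 0 members, against 0.563% of genes lower and 0.557% higher, with 1 member, Fosl1, at an unadjusted p under 0.05 and 0 called by DESeq2. No member was higher in any set. Fosl1, which passed the filter on low counts through control libraries, is among those counted in 2M-12W and 6M-12W. The others counted are Fosb, Jun and Jund in 2M-12W and Fosb, Fosl2 and Junb in 6M-12W.

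These counts per set rest on the spread pooled over the 8 groups. With only the groups compared in the fit, 0 members passed in 2M-8W and 0 in 2M-12W, while 5 passed in 6M-12W (Fos, Fosb, Fosl2, Jun and Junb). Under the same fits 0 genes of all tested were higher and 2 lower in 2M-8W, 0 higher and 0 lower in 2M-12W, and 1245 higher and 1669 lower in 6M-12W. The folds themselves moved little, with -0.84 for Fosl2 and -0.40 for Jund in 2M-8W. Fosl1 was below the filter on low counts in these 3 fits. Without CUMS ovaries 1 and 3 of 2M-8W, 0 members and 0 of all genes passed in 2M-8W, where the log2 fold was -0.68 for Fosl2 and -0.32 for Jund. Leaving out 1 library at a time gave 1 to 4 members in 2M-8W, 1 to 7 in 2M-12W and 3 to 4 in 6M-12W. The 7 members in 2M-12W came without its control ovary 3, in which the levels of 7 members, all but Jund, were the lowest of the group.

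**Figure D2:**
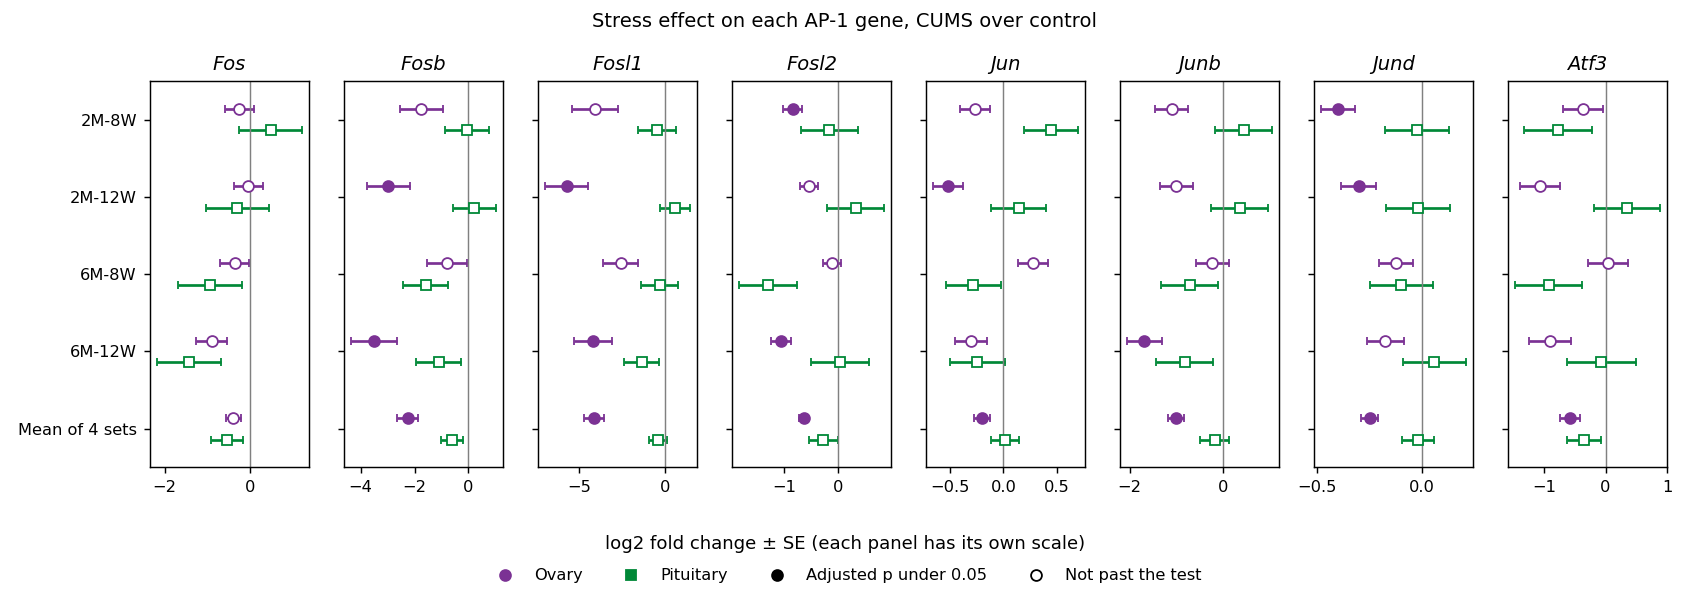
log2 fold change ± SE of each AP-1 gene, CUMS over control, by set and as the mean of 4 sets, for ovary (circles) and pituitary (squares); filled symbols have an adjusted p under 0.05, and each panel has its own scale. Filled symbols occur in ovary only and lie left of 0, while the pituitary values have wide errors around or below 0.

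Whether stress acted more at one duration or age was tested as the difference of 2 stress effects. At 6 months the log2 fold of Fosl2 was lower after 12 than after 8 weeks, with a difference of -0.94 ± 0.25 (SE, adjusted p = 0.0236), and it was the 1 member to pass, where 8.74% of all genes passed in either direction. The call was lost without control ovary 2 of 6M-12W (adjusted p = 0.0837) and without control ovary 2 of 6M-8W. Junb had -1.46 ± 0.51 (SE, adjusted p = 0.0685) and Jun -0.58 ± 0.21 (SE, adjusted p = 0.0748), both short of the threshold. At 2 months no member passed for duration by edgeR or DESeq2, against 0.501% of all genes, and 0 members had an unadjusted p under 0.05. For age, 0.00% of all genes passed at 8 weeks and at 12 weeks, so the 0 members called there say nothing of AP-1. At an unadjusted p under 0.05 there were 3 members at 8 weeks and 1 at 12 weeks, and DESeq2 called 0 members in both. The effect in 6M-12W minus that in 2M-8W also gave 0 members by edgeR and DESeq2 and 0.00% of all genes, with 0 members at an unadjusted p under 0.05. In the control ovaries alone, 0 members passed for 6 over 2 months, against 0.287% of all genes, with 0 at an unadjusted p under 0.05. For 12 over 8 weeks 0 members and 0.00% of all genes passed, with 2 members at an unadjusted p under 0.05, and DESeq2 called 0 members in both control comparisons. Durations and ages may differ in handling or sequencing, which cannot be told apart from the sets.

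Genes that work beside AP-1 were taken from lists chosen with earlier results of these data known. Of 33 other immediate early genes, 24 were lower and 0 higher in the mean of the ovary sets, with a median log2 fold of -0.55. For this and the other ovary lists, the shares of all genes were 11.5% lower and 8.86% higher. The 4 with the smallest p were Klf10, a Kruppel-like factor that TGF-beta induces (log2 fold -0.39 ± 0.05, adjusted p = 2.36e-05), Dusp6, an ERK phosphatase (log2 fold -0.56 ± 0.09, adjusted p = 6.09e-05), the antiproliferative gene Btg2 (log2 fold -0.86 ± 0.13, adjusted p = 6.29e-05) and Csrnp1 (log2 fold -0.85 ± 0.14, adjusted p = 0.000109). Dusp6 was at a mean of 28.7 CPM in CUMS and 42.8 CPM in control ovaries, with 16 of 16 CUMS ovaries below their control mean.

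Of 18 known AP-1 target genes, 10 were lower and 0 higher, with a median of -0.57. Timp1, an inhibitor of matrix metalloproteinases, averaged 38.7 CPM in CUMS and 116 CPM in control ovaries (log2 fold -1.81 ± 0.20, adjusted p = 1.74e-06). Plau, the urokinase (log2 fold -0.45 ± 0.06, adjusted p = 1.07e-05), and Mmp9, a gelatinase (log2 fold -0.63 ± 0.10, adjusted p = 0.000111), fell less. Protease genes and inhibitor genes were thus both among the lower targets.

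Of 18 ovulation genes, which the LH surge induces or which act at ovulation, 17 were tested, 10 were lower and 0 higher, with a median of -0.84. Edn2, endothelin-2, which contracts the follicle at rupture, averaged 1.03 CPM in CUMS and 12.1 CPM in control ovaries (log2 fold -3.32 ± 0.48, adjusted p = 2.93e-05). Adamts1, a protease of the expanding cumulus matrix, averaged 53.6 CPM in CUMS and 181 CPM in control ovaries (log2 fold -1.66 ± 0.25, adjusted p = 6.16e-05). Tnfaip6, which stabilises that matrix (log2 fold -1.53 ± 0.23, adjusted p = 5.06e-05), and the transcription factor Runx1 (log2 fold -0.84 ± 0.16, adjusted p = 0.000518) were lower as well. For each of these 4 genes 16 of 16 CUMS ovaries were below their control mean.

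The partners and the upstream genes moved less. Of 12 further dimer partners, 3 were lower and 1 higher, with a median of -0.09: the MAF proteins Maff (log2 fold -0.71 ± 0.13, adjusted p = 0.000352) and Maf (log2 fold -0.52 ± 0.10, adjusted p = 0.000796) and the leukocyte factor Batf (log2 fold -0.51 ± 0.15, adjusted p = 0.0184) fell, and Atf2, a partner of JUN, rose (log2 fold 0.21 ± 0.05, adjusted p = 0.00253). Of 16 upstream kinases and factors, 2 were lower and 1 higher, with a median of -0.01. These counts are near the shares of all genes, 11.5% lower and 8.86% higher, and so say little of this list. Map3k1, a kinase above the JUN kinase pathway (log2 fold -0.36 ± 0.06, adjusted p = 0.000154), and the ternary complex factor Elk3 (log2 fold -0.19 ± 0.04, adjusted p = 0.00152) fell, and Map2k7, which activates JUN kinases, rose (log2 fold 0.25 ± 0.06, adjusted p = 0.00238). Mapk3, which codes for ERK1, had log2 fold -0.17 ± 0.06, adjusted p = 0.0516 and did not pass.

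**Figure D3:**
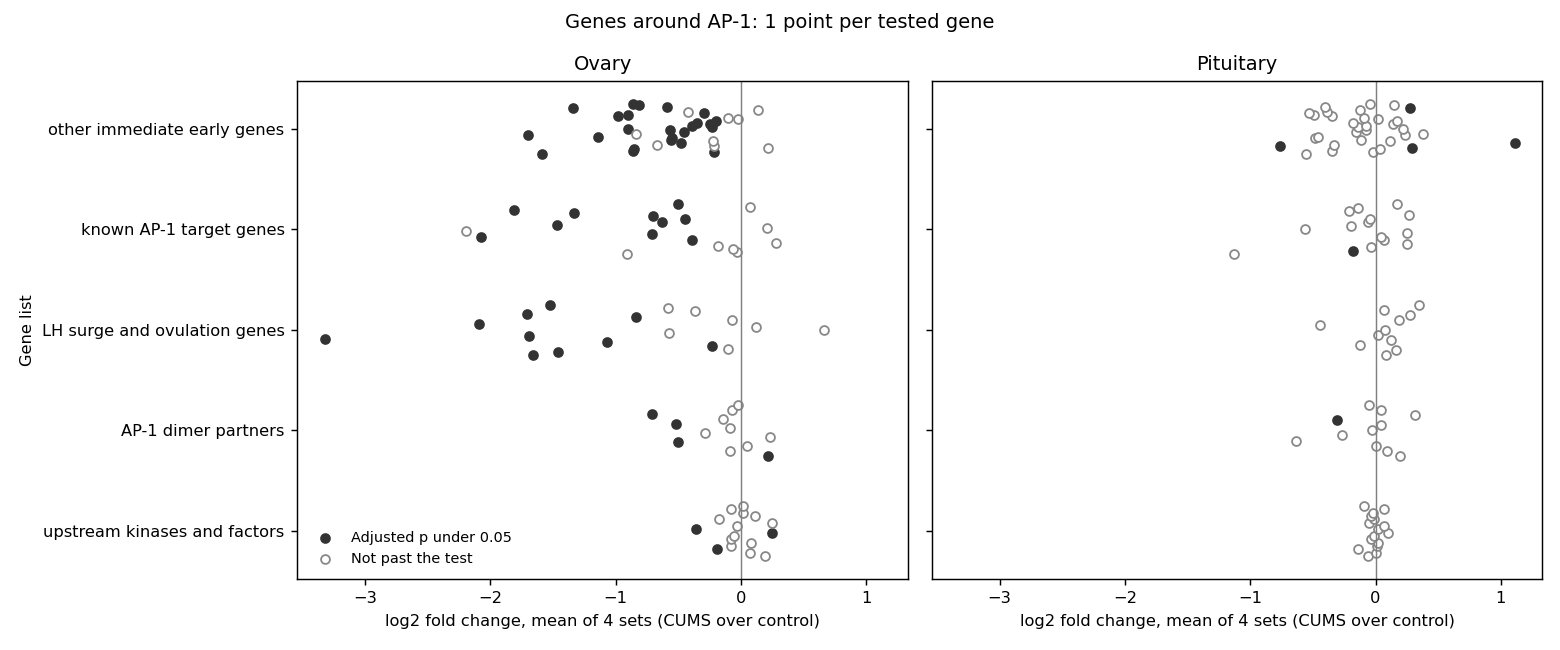
log2 fold change in the mean of 4 sets (CUMS over control), 1 point per tested gene, for 5 gene lists in ovary and in pituitary; filled points have an adjusted p under 0.05. In ovary the immediate early, target and ovulation genes lie mostly left of 0, and in pituitary few points are filled.

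Several measures of cell makeup and of the clock differed between the same ovaries. In the mean of the 4 sets, 4 of 8 luteal, 4 of 8 macrophage, 4 of 7 fibroblast, 2 of 6 endothelial and 2 of 3 tested neutrophil markers were lower, and 5 of 5 theca, 2 of 8 granulosa and 3 of 8 oocyte markers were higher. The shares of all genes in this mean were 11.5% lower and 8.86% higher. Summed macrophage markers were 208 to 507 CPM in CUMS and 296 to 654 CPM in control ovaries, and summed theca markers 307 to 1259 CPM in CUMS and 257 to 1010 CPM in control ovaries. Neutrophil markers summed to 0.0899 to 3.39 CPM in CUMS and 0.528 to 5.21 CPM in control ovaries. Of 8 clock output genes 5 were higher in CUMS ovaries, and both clock activators, Arntl and Npas2, were lower. The mean log2 level of the 8 outputs minus that of the 2 activators was 2.13 to 3.06 in CUMS and 0.828 to 1.76 in control ovaries of 2M-8W, 1.96 to 2.47 in CUMS and 0.133 to 1.66 in control ovaries of 2M-12W, 1.96 to 2.26 in CUMS and 0.214 to 1.36 in control ovaries of 6M-8W, and 3.24 to 3.46 in CUMS and 2.39 to 3.10 in control ovaries of 6M-12W. In every set all CUMS ovaries lay above all controls on this measure. Marker lists of oviduct, epithelium and pituitary cells differed in single sets. In 2M-8W 4 of 4 oviduct and 6 of 7 epithelium markers were higher, with oviduct sums of 5.70 to 2131 CPM in CUMS and 4.89 to 29.98 CPM in control ovaries, the highest being CUMS ovary 1. Epithelium markers there summed to 230 to 535 CPM in CUMS and 81.3 to 202 CPM in control ovaries. In 2M-12W the 1 tested lactotrope and the 1 tested somatotrope marker were lower, with lactotrope sums of 28.5 to 31.9 CPM in CUMS and 34.2 to 915 CPM in control ovaries and somatotrope sums of 12.4 to 14.8 CPM in CUMS and 18.9 to 518 CPM in control ovaries, and control ovary 1 was the highest in both. The share of counts in mitochondrial genes was 4.35 to 4.56% in CUMS and 5.196 to 6.27% in control ovaries of 6M-12W, apart in that set, while the ranges overlapped in the other 3 sets. The part of these differences in the AP-1 levels was not tested.

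In the pituitary 0 of the 8 AP-1 genes passed the test in any set or in the mean by edgeR, and 0 by DESeq2, which gave no adjusted p for Fosl1 in 6M-12W. Without control pituitaries 3 and 4 of 6M-12W it was also 0. At an unadjusted p under 0.05 there was 1, Fosl2 in 6M-8W. Of all genes, 3.37% were lower and 3.07% higher in the mean. By set, 0.182% were lower and 0.241% higher in 2M-8W, 0.194% lower and 0.388% higher in 2M-12W, 2.40% lower and 2.30% higher in 6M-8W, and 0.176% lower and 0.100% higher in 6M-12W. The members varied widely between libraries of 1 group, and no member's CUMS and control ranges were apart in any set. The share of all genes with ranges apart was not counted.

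Fos in pituitary shows this spread. CUMS pituitaries of 2M-8W had 360.2, 146, 433 and 271 CPM, against 25.6, 515, 214 and 106 CPM in controls. Fos stood at 180.05, 500.1, 79.3 and 121 CPM in CUMS pituitaries of 2M-12W, against 488, 95.4, 20.8 and 469 CPM in controls. In both control groups the values lay more than an order of magnitude apart, and CUMS values lay within the control range in both sets except CUMS pituitary 2 of 2M-12W. In 6M-8W it was at 83.7, 36.5, 193 and 231 CPM in CUMS pituitaries, against 256, 148, 444 and 189 CPM in controls. CUMS pituitaries of 6M-12W had 201, 299.95, 140.1 and 69.9 CPM, against 636, 599, 299.7 and 377 CPM in controls. In 6M-12W the groups met at CUMS pituitary 2 and control pituitary 3. The mean log2 fold was -0.54 ± 0.37 (SE, adjusted p = 0.479), with a 95% interval of -1.27 to 0.19. The SD of log2 levels within groups was 1.27 for Fos in pituitary and 0.52 in ovary.

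**Figure D4:**
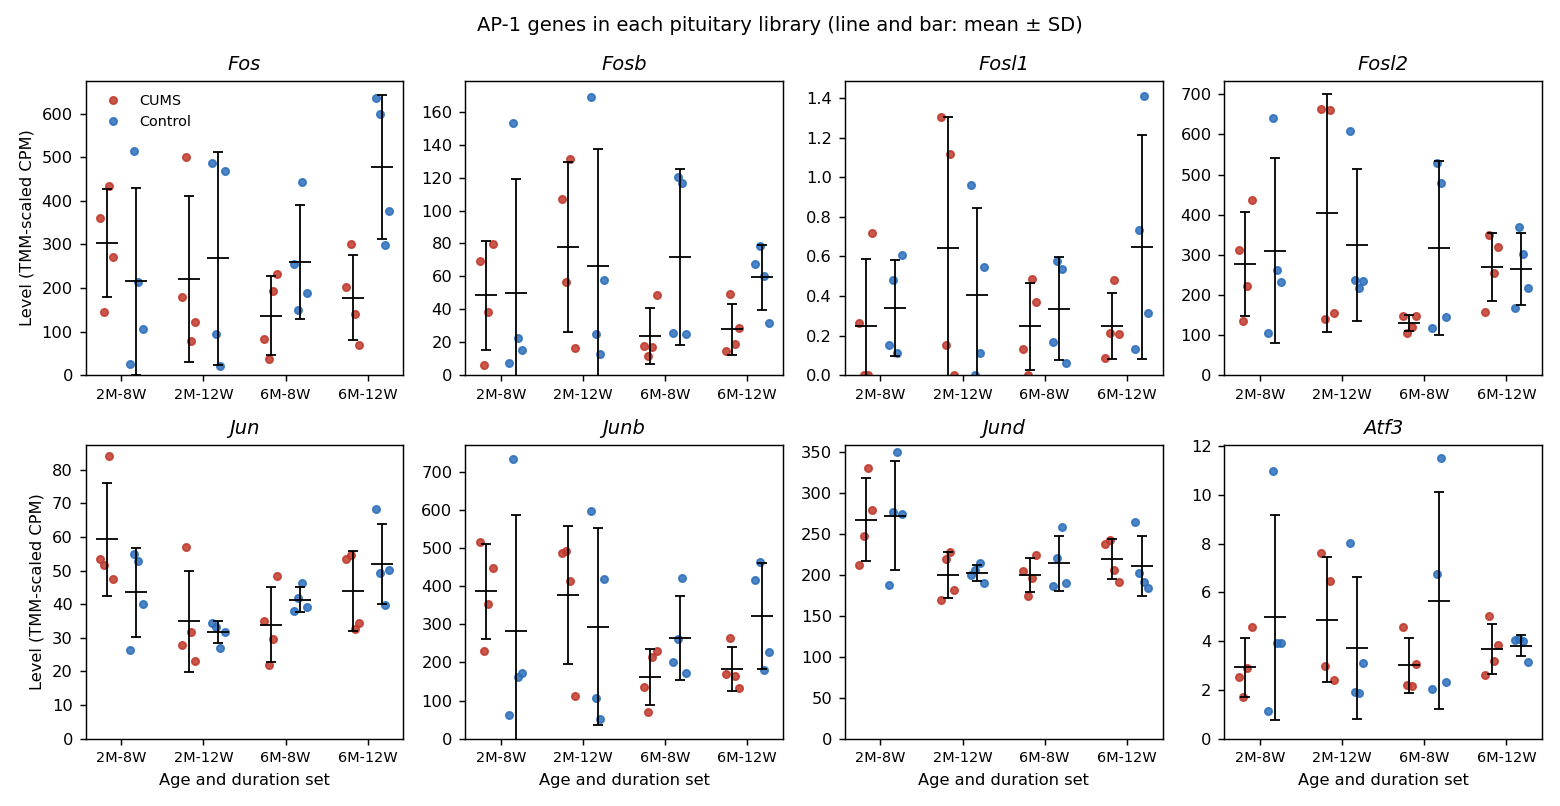
Level of each AP-1 gene (TMM-scaled CPM, axis from 0, own scale per panel) in each of the 32 pituitary libraries, by set, with CUMS in red and control in blue; points are libraries and black bars the mean ± SD. Libraries of 1 group are spread widely for Fos, Fosb, Fosl2 and Junb, and the CUMS and control ranges overlap in every set for every gene.

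The other induced members behaved likewise. Fosb covered 6.29 to 132 CPM in CUMS and 7.50 to 169 CPM in control pituitaries, with a mean log2 fold of -0.63 ± 0.41 (SE, adjusted p = 0.444) and a 95% interval of -1.43 to 0.17. Junb covered 68.9 to 515 CPM in CUMS and 51.7 to 733 CPM in controls, with -0.18 ± 0.30 (SE, adjusted p = 0.827). Fosl2 covered 104 to 664 CPM in CUMS and 106 to 641 CPM in controls, with -0.28 ± 0.26 (SE, adjusted p = 0.649). In these genes a few libraries of either arm were high, such as control pituitary 2 of 2M-8W and CUMS pituitaries 1 and 3 of 2M-12W for Fosl2. These ranges pool the 4 sets. Within each 6-month set, 4 of 4 CUMS pituitaries lay below the control mean for Fosb and for Junb. Within each 2-month set it was 2 of 4 for Fosb and 1 of 4 for Junb. For Fosl2 it was 4 of 4 in 6M-8W and 2 of 4 in each other set. Over all sets, 12 of 16 CUMS pituitaries lay below their control mean for Fos, Fosb and Atf3, and 11 for Fosl1. The number was 10 for Fosl2 and Junb, 9 for Jund and 8 for Jun.

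Fosl2 in 6M-8W was at 146, 104, 120.5 and 146 CPM in CUMS pituitaries, against 116, 529, 479 and 145 CPM in controls, with a log2 fold of -1.30 ± 0.54 (SE, adjusted p = 0.191). The CUMS values were close together at the level of the 2 lower controls. Atf3 covered 1.69 to 7.62 CPM in CUMS and 1.13 to 11.5 CPM in controls, with a mean log2 fold of -0.35 ± 0.27 (SE, adjusted p = 0.544). Fosl1 was at 0 to 1.30 CPM in CUMS and 0 to 1.41 CPM in controls, with -0.41 ± 0.51 (SE, adjusted p = 0.747). Neither gene showed arms apart in any set.

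The steadier JUN genes allow a tighter statement. Jund was at 169 to 330 CPM in CUMS and 184 to 349 CPM in control pituitaries, with a mean log2 fold of -0.02 ± 0.08 (SE, adjusted p = 0.922) and a 95% interval of -0.17 to 0.13. Jun was at 22.0 to 84.2 CPM in CUMS and 26.2 to 68.2 CPM in controls, with 0.02 ± 0.13 (SE, adjusted p = 0.971) and an interval of -0.24 to 0.27. In the control pituitaries 0 members passed for 6 over 2 months, where 16.1% of all genes passed, with 0 members at an unadjusted p under 0.05. For 12 over 8 weeks 0 members passed, where 17.1% of all genes did, with 1 member at an unadjusted p under 0.05. DESeq2 called 0 members in both and gave no adjusted p for Fosl1. None of the differences of the stress effect between pituitary sets passed for any member in edgeR or DESeq2, and 0 members had an unadjusted p under 0.05. Few genes of any kind passed there: 0.182% for age at 8 weeks, 0.0235% for age at 12 weeks, 0.00% for duration at 2 months, 0.359% for duration at 6 months and 0.0176% for 6M-12W minus 2M-8W. DESeq2 gave no adjusted p for Fosl1 in both age differences and in the duration difference at 6 months.

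Around AP-1 in the pituitary, 1 of 33 other immediate early genes was lower and 3 higher in the mean, with a median log2 fold of -0.09. The shares of all genes in this mean were 3.37% lower and 3.07% higher. Cyr61, a matrix protein gene, fell (log2 fold -0.76 ± 0.21, adjusted p = 0.0213), and the kinase gene Sgk1 (log2 fold 0.27 ± 0.06, adjusted p = 0.00738), the matrix protein gene Ctgf (log2 fold 0.29 ± 0.07, adjusted p = 0.0101) and the phosphatase gene Dusp2 (log2 fold 1.11 ± 0.29, adjusted p = 0.0182) rose. Of 15 tested AP-1 targets 1 was lower, the cyclin gene Ccnd1 (log2 fold -0.18 ± 0.04, adjusted p = 0.0112). None of 16 upstream genes and none of 11 tested ovulation genes passed. In the same libraries the 4 corticotrope markers were all higher, with sums of 10550 to 35534 CPM in CUMS and 3595 to 16863 CPM in controls. All 8 clock outputs were higher and both activators lower, and the clock measure of every CUMS pituitary lay above that of all controls of its set. The part of these in the AP-1 values was not tested.

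Whether the tissues differ was tested in 1 model over both, as the stress effect in ovary minus that in pituitary, with 1 spread per gene shared by the tissues. The titles use the same replicate numbers in both tissues, and the sources used here do not say whether these are the same mice. The model treated all libraries as independent, so any such pairing was ignored. In the mean of the 4 sets Fosl1 was the 1 member that passed, with -3.72 ± 0.84 (SE, adjusted p = 0.00177), where 10.2% of all genes passed in either direction. Fosl1 is the member with few reads in ovary that passed the filter through control libraries, and with no filter the difference was -3.72 ± 0.83 (SE, adjusted p = 0.00206). In the fit with the filter Fosl1 also passed in 2M-12W, with -6.26 ± 1.62 (SE, adjusted p = 0.029), where 1.86% of all genes passed. For that set the difference with no filter is not given, so this call rests on the filtered fit alone. For Fosb the difference was -1.64 ± 0.61 (SE, adjusted p = 0.0817), with a 95% interval before adjustment of -2.84 to -0.43. For Junb it was -0.82 ± 0.37 (SE, adjusted p = 0.172), and for Jund -0.22 ± 0.09 (SE, adjusted p = 0.119). Fosl2 had -0.36 ± 0.29, Jun -0.21 ± 0.15, Atf3 -0.22 ± 0.33 and Fos 0.16 ± 0.44. For the members other than Fosl1 a different response of the 2 tissues was thus not shown, although 6 of them passed in ovary alone. Without control pituitary 2 of 2M-8W, which had high values of most members, Fosb and Junb passed too (adjusted p = 0.0141 for Fosb and 0.032 for Junb), and DESeq2 called Fosb beside Fosl1. Of the 63 fits that left out 1 library, 3 called Fosb, 1 Junb and 2 Jund, and all 63 called Fosl1.

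Some members moved together between libraries of the same group. With each group's mean removed, all 28 pairs of members had a Pearson r above 0 in ovary (median 0.401, range 0.057 to 0.724, n = 31 libraries) and 26 of 28 in pituitary (median 0.58, range -0.072 to 0.9, n = 32). Each pair shares its libraries and their scaling, and how often pairs of other genes reach such values was not counted. Labels were permuted within groups 100000 times, and p-values were adjusted over the 56 pairs: 7 pairs passed in ovary and 15 in pituitary. In ovary the closest pair was Fosl2 and Junb, with r = 0.724 (permutation p = 0.00138, adjusted 0.00515), rho = 0.614 (permutation p = 0.00227, adjusted 0.00847) and r = 0.604 without the 2 libraries farthest out. Here and below, the 2 farthest are those farthest from the median of the first-named gene, with group means removed. Extremes of the second gene were not used to choose them. Fos and Junb had r = 0.712 (permutation p = 0.00076, adjusted 0.00355), rho = 0.654 (permutation p = 0.00103, adjusted 0.00465) and r = 0.584 without the 2 farthest. Neither Jun nor Jund was in any of these 7 pairs, which passed by Pearson r. By rank Junb and Jund had rho = 0.486 (permutation p = 0.0208, adjusted 0.0486), with r = 0.405 (permutation p = 0.0618, adjusted 0.112). The lowest ovary pair, Fosl1 and Jun, had r = 0.057, and -0.185 without the 2 farthest.

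In pituitary the closest pair was Fosl2 and Atf3, with r = 0.900 and rho = 0.901 (both with permutation p = 1e-05, the smallest these permutations can give, adjusted 0.00014 and 0.000187) and r = 0.877 without the 2 farthest. Fos and Junb had r = 0.864 (permutation p = 2e-05, adjusted 0.000224), rho = 0.838 (permutation p = 2e-05, adjusted 0.000224) and r = 0.805 without the 2 farthest. Fos and Fosl2 had r = 0.284 (permutation p = 0.184, adjusted 0.237), rho = 0.226 (permutation p = 0.273, adjusted 0.356) and r = 0.144 without the 2 farthest. Jun and Jund had r = 0.739 (permutation p = 6e-05, adjusted 0.00048), rho = 0.742 (permutation p = 6e-05, adjusted 0.00056) and r = 0.760 without the 2 farthest, and neither passed with Fosl1 or Fosl2.

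**Figure D5:**
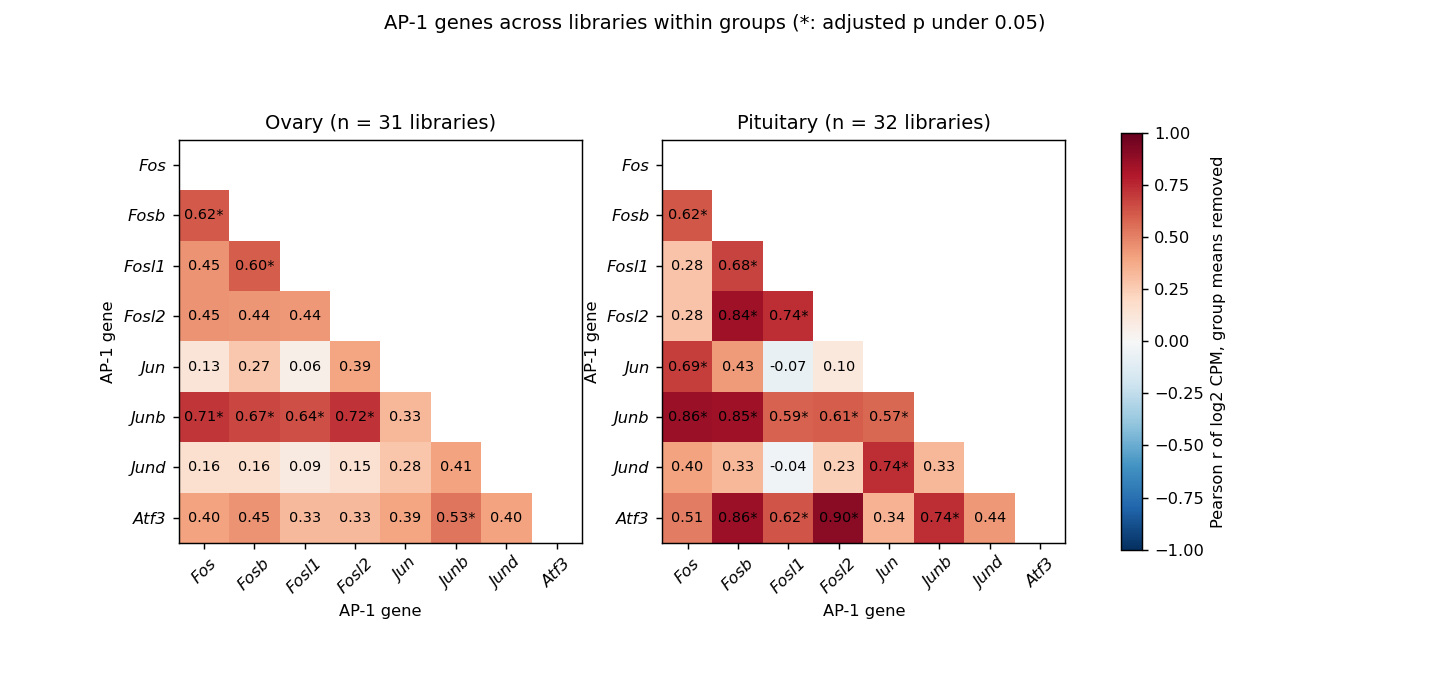
Pearson r between AP-1 genes over libraries (log2 CPM with group means removed), for ovary and pituitary; colour runs from -1 (blue) to 1 (red) and an asterisk marks an adjusted permutation p under 0.05. In ovary the marked pairs involve Fos, Fosb, Fosl1, Fosl2, Junb and Atf3, and in pituitary Fosl2 and Atf3 reach 0.90.

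Over all libraries of a tissue, group differences included, the genes most like each member were sought among all tested genes by Pearson r of log2 CPM. For Fos in ovary they were Tln2 (r = 0.736), Egr1 (0.701), Mex3a (0.683), Abl2 (0.666) and Rasa2 (0.662), over 31 libraries. For Fos in pituitary they were Dusp1 (r = 0.952), Ier2 (0.893), Egr1 (0.874), Junb (0.839) and Zfp36 (0.836), over 32 libraries. In ovary the nearest gene was Zfp36 for Junb (r = 0.957), Tmem26 for Fosb (0.922), Edn2 for Fosl1 (0.906), Junb for Fosl2 (0.881), Gnai2 for Jund (0.864), Myof for Jun (0.833) and Bcl2a1b for Atf3 (0.809). In pituitary it was Midn for Fosl2 (r = 0.935), Btg2 for Junb (0.932), Gga1 for Jund (0.915), Nr4a1 for Fosb (0.912), Cited2 for Jun (0.83) and RP23-178C20.6 for Fosl1 (0.774). Egr1 was on the Fos lists of both tissues.

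The genes lie on 7 chromosomes in build GRCm38, per the tables. Fos is at chr12:85473890-85477273 (plus strand), Fosb at chr7:19302721-19310045 (minus), Fosl1 at chr19:5447703-5455945 (plus) and Fosl2 at chr5:32135801-32157842 (plus). Jun is at chr4:95049034-95052222 (minus), Junb at chr8:84976909-84978748 (minus), Jund at chr8:70697739-70700616 (plus) and Atf3 at chr1:191170296-191218039 (minus). Counts are over whole genes, so isoforms of Fosb or Atf3 were not separated.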

How the data were processed

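Per the labels' protocols, RNA came from a chloroform extraction and was turned into libraries with a NEBNext Ultra II kit. The authors deposited raw read counts per gene for each tissue and, beside them, FPKM values (counts scaled by gene length and library total). The sources used here name no aligner, counter, strandedness or annotation. Positions in the tables are those of GRCm38.

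Each tissue was fitted with its 8 groups in 1 model (17766 genes in ovary and 17001 in pituitary after filterByExpr), with TMM scaling and the quasi-likelihood F test of edgeR 4.0.16 in R 4.3.3. The tissue difference came from 1 model of 16 groups (19047 genes). Adjusted p-values are Benjamini-Hochberg, over all genes tested, with a threshold of 0.05. Folds are log2, CUMS over control, and their SE was taken as the absolute fold over the square root of the F statistic. The 95% intervals of folds used this SE with normal quantiles, so they are somewhat narrower than the F test would give. The biological coefficient of variation was 0.207 in ovary and 0.158 in pituitary. FPKM served only to compare levels between genes. log2 CPM for correlations used a prior count of 2. Intervals of pooled counts are at 95% and cover counting error only.

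Of each list, the 4 genes with the smallest p in the mean comparison were named, and of the most similar genes 5 for Fos and 1 for each other member. A few results that these rules would name are not reported here. The members and lists were chosen with earlier results of these data known. The 93 pairs of libraries within groups all differed beyond counting noise (chi-square per degree of freedom of at least 8.41). Scripts were tested on simulated data. Alternatives were DESeq2 1.42.0, RLE size factors, library totals only, no filter, only the groups compared, the replicate number as a block, and each library left out. 2 alternatives that leave out libraries standing apart were chosen after seeing the data.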

Additional observations from a re-analysis of the deposited data

Results flagged for a closer look

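In 11 of 120 groups of 4 libraries checked, 1 library's level of an AP-1 gene lay far from the other 3, by Dixon's test on log2 CPM at the 95% level. Chance flags about 1 in 20 groups. In ovary, Atf3 was low in CUMS 4 of 6M-12W at 4.17 CPM, Fos was high in control 3 of 6M-8W at 31.2 CPM, Fosb was high in CUMS 3 of 6M-8W at 11.5 CPM, and Jun was high in control 4 of 2M-8W at 168 CPM. Fosl1 was at 0 CPM in control 3 of 2M-12W against 2.88 to 3.43 CPM in the other controls, and at 0.24 CPM in CUMS 3 of 2M-8W against 0 in the other CUMS ovaries. With the other 3 CUMS ovaries at 0, any value above 0 would have been flagged there. Junb was high in CUMS 1 of 2M-12W at 58.8 CPM and in control 3 of 6M-8W at 84.9 CPM. In pituitary, Atf3 was low in control 4 of 6M-12W at 3.15 CPM, Fosl2 was high in control 1 of 2M-12W at 608 CPM, and Junb was low in CUMS 4 of 2M-12W at 112 CPM.

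The stress effect differed between groups by the test of the difference itself in 3 cases. Fosl2 in ovary had a stress effect in 6M-12W minus that in 6M-8W of -0.94 on the log2 scale. Fosl1, which passed the filter on low counts through control libraries, had an ovary minus pituitary difference of -3.72 in the mean of the 4 sets. In 2M-12W its difference was -6.26, in the fit with the filter.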

How the results depend on the processing

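Of 3921 folds of AP-1 genes compared with the value reported, over all alternatives, 3830 stayed on the same side of the threshold, 50 were called in the report and lost, 41 were gained and 0 called folds changed sign. Among 3176 folds not called, 64 had the other sign. With DESeq2, 4 members were lower in 2M-8W ovaries, 7 in 2M-12W ovaries, 3 in the duration difference at 6 months and 2 in the mean tissue difference, against 2, 4, 1 and 1 in the report. With only the groups compared in the fit, the counts were 0 in 2M-8W and 0 in 2M-12W ovaries and 3 for the duration difference; the means and the tissue difference need all groups and have no such fit. Without CUMS ovaries 1 and 3 of 2M-8W they were 0 in 2M-8W and 2 for the duration difference. Leaving out 1 library at a time gave 1 to 4 members lower in 2M-8W, 1 to 7 in 2M-12W, 3 to 4 in 6M-12W, 6 to 7 in the ovary mean, 0 to 4 for the duration difference and 1 to 3 for the tissue difference in the mean. It gave 0 members in either direction in 6M-8W ovaries and in every pituitary set and mean, and 0 higher in ovary. The cause of these changes was not tested.

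Whether the replicate numbers pair samples is not stated by the titles and was not tested. Of same-numbered CUMS and control libraries, 3 of 15 ovary and 5 of 16 pituitary pairs had a correlation over 0.1 (ovary -0.241 to 0.201, pituitary -0.0689 to 0.267). With the replicate block, 7 members were lower in the ovary mean and 0 in the pituitary mean, and no count of AP-1 genes changed by over 1.5 times.

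Counts over all genes moved by over 1.5 times as follows, with the number higher first and the number lower second in each pair. With only the groups compared, ovary had 0 higher and 2 lower genes in 2M-8W (703 and 410 in the report), 0 and 0 in 2M-12W (459 and 738), 33 and 66 in 6M-8W (99 and 100), 1669 lower in 6M-12W (1112), and 1307 and 1330 for the duration difference (722 and 830). In pituitary it gave 11 and 7 in 2M-8W (41 and 31) and 4 and 3 in 6M-12W (17 and 30). DESeq2 gave in ovary 671 lower in 2M-8W, 700 higher in 2M-12W, 325 and 273 in 6M-8W and 1347 lower for the duration difference. In pituitary it gave 62 and 53 in 2M-8W, 134 and 94 in 2M-12W (66 and 33) and 48 and 95 in 6M-12W. With no filter on low counts, ovary had 251 lower in 2M-8W, 39 and 45 in 6M-8W and 416 higher for the duration difference. With library totals only, it had 58 higher in 6M-8W and 1168 higher for the duration difference. Without CUMS ovaries 1 and 3, 2M-8W had 0 higher and 0 lower. Without control pituitaries 3 and 4 of 6M-12W, pituitary 2M-12W had 113 higher and 73 lower. The few reads of Fosl1 and the spread of the pituitary libraries limit what could be detected.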
